A study of Mus musculus with 2 samples.

Results

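The genes described here are 32 nuclear receptor genes other than those of the RORs, taken with every non-control spot whose gene name in the array files was that of a listed gene. Of the 32, 26 were found by name, with 31 probes among the 41174 distinct probes of the array, and 6 were not found under their current symbol. A gene was taken as measured where a probe was well above background (by the scanner software's flag, 2.6 background SDs) in a genotype on both arrays. This held for 19 of the 26 genes with 23 probes, against 30441 measured of 38354 genes and transcripts in all.

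Nuclear receptors are transcription factors, most of which are switched by small fat-soluble ligands such as hormones, vitamins, fatty acids, sterols and bile acids. Most bind copies of a short DNA core, AGGTCA or a close relative of it, either alone, as pairs of the same receptor or with a retinoid X receptor (RXR) as partner. In fat, Pparg is required to form and keep adipocytes, and Ppara is known in brown fat as a regulator of fatty acid oxidation genes. RORs, the receptors lost in the mutant mice of this series, bind the same core as single molecules, with an A/T-rich stretch before it.

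RNA came from interscapular brown adipose tissue of male C57BL/6 mice, 2 to 3 months old, taken near circadian time 20, with 4 mice named per genotype. The wild-type mice (WT) were compared with double-knockout mice (DKO) that are homozygous for the loss of genes that include the receptor gene Rora. Each of 2 arrays carried RNA of both genotypes. On the first array DKO was in Cy5 and WT in Cy3, on the second the dyes were swapped, and each genotype was counted as 1 RNA preparation. No test between genotypes was therefore possible. Each value is a log2 ratio, DKO over WT, given as a mean ± SD (n = 2 arrays), where the SD holds dye and measurement error and does not give the spread between mice. Genes called higher or lower had a mean difference of at least 2-fold and at least 1.5-fold in the same direction on either array, with signal well above background in the higher genotype each time. The check of the labels by Rora gave log2 ratios of -0.38 ± 0.04 and -0.47 ± 0.10 with its probes, and -0.96 and -1.52 with the software's own ratios, which are not shrunk for dim spots. Between 77.6% and 85.4% of probe spots were well above background per channel. The brown adipocyte marker Ucp1, the uncoupling protein that makes heat, was bright in both genotypes at 0.73 ± 0.00, and the brown adipocyte gene Cidea was saturated.

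Promoter sequence is shown for the receptor gene that read highest in DKO (Ppara), the one that read lowest (Esr1) and the receptor that defines the adipocyte (Pparg), to show where the shared receptor core occurs next to them. Each sequence is the 250 bases before the most upstream RefSeq start of the gene, 5′ to 3′ on the gene's strand, in build GRCm38.p6, with AGGTCA in capitals where it or its reverse complement occurs.
Ppara, chr15:85735526-85735775, + strand: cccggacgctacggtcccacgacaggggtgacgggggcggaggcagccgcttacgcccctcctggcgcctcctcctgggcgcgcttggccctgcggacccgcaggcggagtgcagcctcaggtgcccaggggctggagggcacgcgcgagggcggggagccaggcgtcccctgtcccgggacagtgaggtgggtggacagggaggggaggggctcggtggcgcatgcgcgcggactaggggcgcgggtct
Esr1, chr10:4611739-4611988, + strand: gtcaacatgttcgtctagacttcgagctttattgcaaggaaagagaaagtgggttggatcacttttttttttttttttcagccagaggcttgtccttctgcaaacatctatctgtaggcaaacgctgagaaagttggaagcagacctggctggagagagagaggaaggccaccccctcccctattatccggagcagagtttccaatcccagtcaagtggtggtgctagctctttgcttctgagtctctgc
Pparg, chr6:115360894-115361143, + strand: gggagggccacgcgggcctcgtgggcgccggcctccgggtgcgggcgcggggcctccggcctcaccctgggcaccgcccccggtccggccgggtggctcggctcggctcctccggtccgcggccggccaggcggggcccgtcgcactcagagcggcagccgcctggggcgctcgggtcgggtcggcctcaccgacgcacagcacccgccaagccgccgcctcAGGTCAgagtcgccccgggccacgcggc
Pparg carries the core 28 bases before this start, and neither Ppara nor Esr1 has it here. Promoters of 30 of the 32 genes matched RefSeq by symbol, 44 windows of 300 bases (250 before and 50 after each start), and 10 of the 44 windows (22.7%) held AGGTCA on either strand. Of all 32851 RefSeq promoter windows of that length, 5340 (16.3%) held it. The longer form with a T before the core, TAGGTCA, which is a part of the occurrences of AGGTCA, was in none of the 44 windows and in 856 of all windows (2.61%). These are matches of letters in one window per start and say nothing of binding.

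No measured receptor gene passed the 2-fold rule: 0 of 19 were higher in DKO, beside 30 of all 30441 measured genes (0.0986%), and 0 of 19 were lower, beside 7 of all (0.023%). Rora, the deleted receptor gene, did not pass this rule either, at -0.38 and -0.47 with its probes. For dim probes, whose ratios the offset shrinks, a missing call or a value near zero does not show a lack of change. With the threshold at 1.5-fold and the same sign on both arrays, Ppara was the 1 receptor gene that was higher (0.358% of all genes were), and 0 were lower (0.263% of all were). By the scanner software's error model at p at most 0.01 on both arrays, which covers measurement error within an array only, 1 of 19 was higher (Ppara, where 0.503% of all genes were) and 1 of 19 was lower (Esr1, where 0.411% of all genes were). Most receptor genes had a mean close to zero: 14 of 19 (73.7%) had a mean log2 ratio within 0.1 of zero, and 25386 of all 30441 genes (83.4%) did. The median log2 ratio of the 19 genes was 0.03, from -0.47 to 0.61, beside a median of 0.00 over all genes. The median on each array was 0.04 where DKO was in Cy5 and -0.02 where it was in Cy3.

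**Figure D1:**
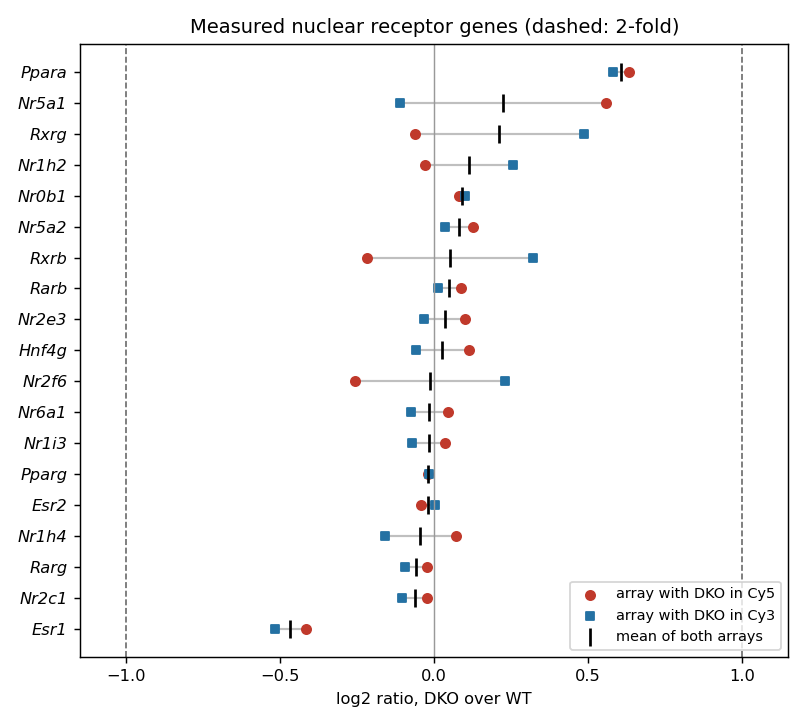
Log2 ratio of DKO over WT (x axis) for the 19 measured nuclear receptor genes (y axis, ordered by their mean), with a circle for the array with DKO in Cy5, a square for the array with DKO in Cy3 and a bar for the mean of both. Ppara lies at 0.61 and Esr1 at -0.47, away from the other 17 genes, and none reaches the dashed 2-fold lines.

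Of the fatty acid receptors, Ppara had the highest mean ratio of the 19 genes, and Pparg lay close to zero. Ppara, whose product binds fatty acids and switches on their oxidation, had a normalised log2 level of 8.48 in WT and 9.11 in DKO on the first array, and 8.68 in WT and 9.26 in DKO on the second. Both DKO values lay above both WT values whichever dye carried them. The ratios were 0.63 and 0.58, a mean of 0.61 ± 0.04 or 1.52-fold, and the software's ratios gave 0.69 ± 0.06. Among all measured genes, 103 (0.338%) had a higher mean ratio. Background-subtracted signals of this probe were 251 (WT, Cy3) against 675 (DKO, Cy5) on the first array and 374 (WT, Cy5) against 453 (DKO, Cy3) on the second, before the dyes were balanced.

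Pparg, the receptor that drives adipocyte formation, had a ratio close to zero. Its normalised log2 levels were 11.56 in WT and 11.54 in DKO on the first array, and 11.75 in WT and 11.74 in DKO on the second. The levels of the genotypes overlapped across arrays, and the ratio was -0.02 on both arrays (mean -0.02 ± 0.00). Its probe had background-subtracted signals of 2342 to 3809 in the 4 channels, so a low signal does not limit this value. Ppard was not found under its symbol. A probe described only as a peroxisome proliferator activated receptor, with no subtype named, read -0.01 ± 0.03 and was not assigned to any of the 3 genes.

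The products of the RXR genes pair with the fatty acid, retinoid, sterol, bile acid, xenobiotic and vitamin D receptors. Of these genes, Rxrg and Rxrb gave opposite signs on the arrays. Rxrg had log2 levels of 8.44 in WT and 8.37 in DKO on the first array, and 8.37 in WT and 8.85 in DKO on the second. Only the DKO sample in Cy3 stood above the rest, and the ratios were -0.06 and 0.49 (mean 0.21 ± 0.39). The brighter Rxrb probe read -0.22 and 0.32 (0.05 ± 0.38), and its second probe -0.08 and 0.19 (0.05 ± 0.19). Rxra could be measured on 1 array only, at 0.08, since the software marked its spot on the first array as an outlier. With that spot kept, Rxra read 0.04 ± 0.06.

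The retinoic acid receptors, which bind all-trans retinoic acid as partners of RXR, read close to zero. Rarb gave 0.09 and 0.01 on the first and the second array (0.05 ± 0.05). Rarg gave -0.02 and -0.09 (-0.06 ± 0.05), and its second probe was well above background in 1 of 4 channels and not measured. Rara was well above background in both genotypes on the first array and in neither on the second, and counts as not measured.

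Of the sterol and bile acid receptors, Nr1h2 (liver X receptor beta, an oxysterol receptor) read -0.03 and 0.25 (0.11 ± 0.20), with opposite signs. Nr1h4, the bile acid receptor FXR, read 0.07 and -0.16 (-0.05 ± 0.16). Of the receptors for foreign compounds and vitamin D, Nr1i3 (CAR) read 0.04 and -0.07 with its brighter probe (-0.02 ± 0.08). Its second probe read -0.20 and -0.04 (-0.12 ± 0.11). The array annotation ties the brighter probe to a cDNA clone and the second, dimmer one to the RefSeq transcript. Vdr, the vitamin D receptor, was well above background in none of 4 channels.

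Esr1, the estrogen receptor alpha gene, had the lowest mean ratio of the 19 genes, and its probes did not give the same value. The brighter probe, A_52_P237077, which the array annotation ties to a cDNA clone and to no RefSeq transcript, had log2 levels of 8.03 in WT and 7.61 in DKO on the first array, and 8.20 in WT and 7.68 in DKO on the second. Both DKO values lay below both WT values with this probe. The ratios were -0.42 and -0.52, a mean of -0.47 ± 0.07 or 0.72-fold, and the software's ratios gave -0.62 ± 0.12. Among all measured genes, 142 (0.466%) had a lower mean ratio.

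The second Esr1 probe, A_51_P474658, which is annotated to the RefSeq transcript, had log2 levels of 7.27 in WT and 7.20 in DKO on the first array, and 7.29 in both genotypes on the second. With it the genotypes overlapped, and the ratio was -0.03 ± 0.05 (-0.07 ± 0.04 with the software's ratios). Both Esr1 probes were well above background in all 4 channels. A value for the gene as a whole thus rests on which probe is read. Averaged over both probes, Esr1 read -0.25.

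The other steroid hormone receptors gave no such value. Esr2, the estrogen receptor beta gene, read -0.04 and 0.00 (-0.02 ± 0.03). Pgr, the progesterone receptor gene, was well above background in none of 4 channels, nor was a further probe, named PR in the files, measured. Nr3c2, the mineralocorticoid receptor gene, was found by description rather than name, with 3 probes at -0.02 ± 0.03, -0.04 ± 0.01 and -0.01 ± 0.13.

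The HNF4 and NR2 receptors, most of which have no known regulatory hormone, had means near zero. Hnf4g, a relative of the liver regulator Hnf4a, read 0.11 and -0.06 (0.03 ± 0.12). Nr2c1, a testicular receptor, read -0.02 and -0.10 with its brighter probe (-0.06 ± 0.06) and 0.12 and 0.03 with its second (0.07 ± 0.06), so that its probes had opposite signs on both arrays. Nr2e3, known from photoreceptors, read 0.10 and -0.03 (0.03 ± 0.09). Nr2f6, a COUP-TF relative, read -0.26 and 0.23 (-0.01 ± 0.34).

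The NR5A and NR6A receptors bind DNA as single molecules or as pairs of their own kind. Nr5a1, the steroidogenic factor of adrenal and gonad, had log2 levels of 7.81 in WT and 8.37 in DKO on the first array, and 8.29 in WT and 8.18 in DKO on the second. The WT sample in Cy3 was the low one, and the other three channels lay together, so the genotypes overlapped. Its ratios were 0.56 and -0.11 (0.22 ± 0.47), the widest gap among the 19 genes. Nr5a2, the liver receptor homolog, read 0.13 and 0.04 (0.08 ± 0.06), and Nr6a1, the germ cell nuclear factor gene, 0.04 and -0.08 (-0.02 ± 0.08).

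Nr0b1 and Nr0b2 encode receptors that lack a DNA-binding domain and act by binding other receptors. Nr0b1 (DAX-1) read 0.08 and 0.10 (0.09 ± 0.01), the same sign on both arrays at a size of under 0.1. Nr0b2 (SHP) was well above background in both genotypes on the first array and in neither on the second, and its ratio was -0.03 ± 0.03.

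**Figure D2:**
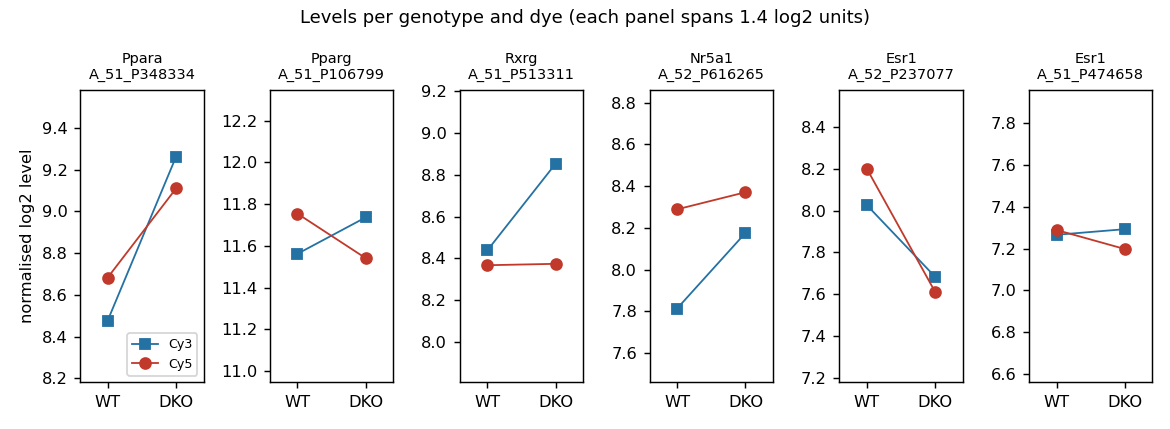
Normalised log2 level (y axis; each panel spans the same 1.4 log2 units at its own height) of WT and DKO (x axis) in Cy3 (squares) and Cy5 (circles) for 6 probes of 5 receptor genes; lines join samples of the same dye, which were on different arrays. The DKO points of Ppara both lie above its WT points, those of the first Esr1 probe both lie below, and Pparg, Rxrg, Nr5a1 and the second Esr1 probe overlap between genotypes.

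Of the 19 genes, 8 kept one sign on both arrays. Nr0b1, Nr5a2, Ppara and Rarb were above zero on both arrays (4 of 19, 21.1%, where 5911 or 19.4% of all measured genes were). Esr1, Nr2c1, Pparg and Rarg were below zero on both (4 of 19, 21.1%, where 5400 or 17.7% of all were). Both shares lie near those of all genes. Of these 8 genes, Ppara and Esr1 alone had mean log2 ratios further than 0.1 from zero. The sign of dim probes also depended on the processing. With the software's own ratios, Rarb (0.23 and -0.14) and Nr5a2 (0.40 and -0.01) had opposite signs on the arrays. Esr2 (-0.01 and -0.12) then had the same sign on both.

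In 5 of the 19 genes (26.3%) the arrays differed by more than 0.25 on the log2 scale, as in 6204 of all measured genes (20.4%), and in each of the 5 the sign differed too. Nr1h2, Rxrb, Rxrg and Nr2f6 read lower in DKO when it was in Cy5 and higher when it was in Cy3. Nr5a1 did the reverse, and with 1 array per orientation, dye and array cannot be told apart. Means over both dyes, such as 0.22 for Nr5a1 and 0.21 for Rxrg, are smaller than their SDs. The median gap between arrays was 0.11 over the 19 genes and 0.12 over all.

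**Figure D3:**
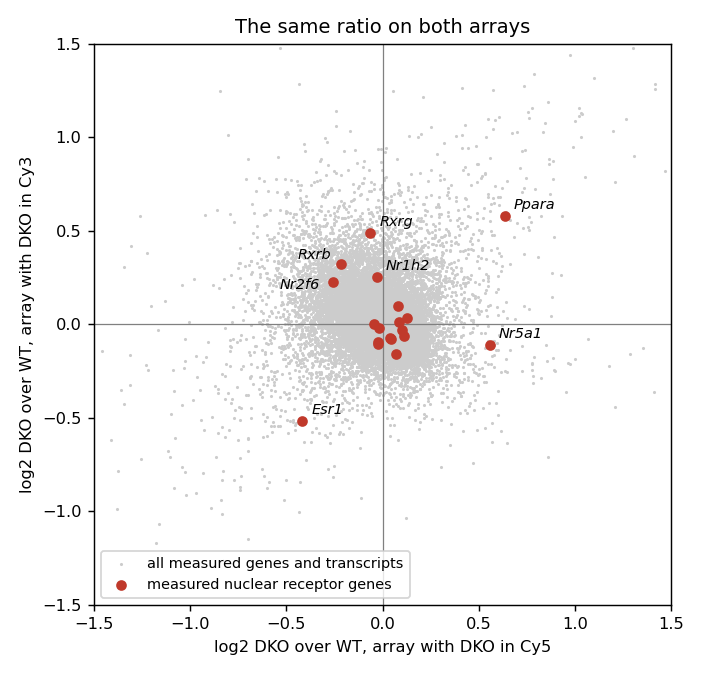
Log2 ratio of DKO over WT on the array with DKO in Cy5 (x axis) against that on the array with DKO in Cy3 (y axis) for all measured genes and transcripts (grey) and the 19 measured nuclear receptor genes (red); 14 of all genes lie beyond the axes. Ppara is the receptor far into the upper right, Esr1 the one far into the lower left, and Rxrg, Rxrb, Nr2f6, Nr1h2 and Nr5a1 lie where the arrays disagree in sign.

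Of the 7 genes found but not measured, Rxra was left out for its outlier mark, and the others were dim. Background-subtracted signals of Nr2f1 were 1.72 and 1.38 in WT (Cy3 and Cy5) and 2.66 and 5.09 in DKO (Cy5 and Cy3). The Pgr probe gave 3.25 and 0.00 in WT and 4.62 and 2.08 in DKO, and the Vdr probe 6.59 and 5.25 in WT and 8.08 and 6.37 in DKO. Nr2e1, the tailless receptor of neural stem cells, read -0.05 ± 0.29 with no channel well above background. For comparison, 95% of the 314 negative control spots lay under 6.05 and 5.82 in Cy3 and under 2.04 and 2.18 in Cy5. With that percentile as the threshold in place of the software's flag, 23 of the 26 genes would count as measured.

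Just outside the threshold were Nr0b2, at 18.3 and 13.7 in WT and 25.4 and 12.0 in DKO, and Rara, at 13.8 and 12.2 in WT and 21.7 and 10.04 in DKO. Just inside it was Rarb, at 19.2 and 21.6 in WT and 31.6 and 17.3 in DKO. A gene not well above background on both arrays was too dim for this threshold, which does not show that it is absent from brown fat.

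Several receptors carry older or clone names in the files and lie outside the rule by name. Hnf4a, a receptor of liver and gut listed as Hnf4, read 0.04 ± 0.09, and Nr2f2 (COUP-TFII), listed under a clone name, 0.03 ± 0.01. Both were identified by RefSeq accession. By the description in the files, Nr1i2 (PXR, which like CAR senses foreign compounds) read -0.02 ± 0.12 and Nr2c2, a testicular receptor, -0.01 ± 0.08. With Nr3c2, this gave values for 5 of the 6 genes not found by name, each within 0.1 of zero.

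Values of target genes of the receptors are given for the same RNA. The lists hold textbook targets but were chosen with earlier results of these data known, so they are no independent readout of the receptors. Many targets are shared with other regulators. Of 30 listed PPAR targets 24 were measured, and 3 passed the 2-fold rule, all higher in DKO. Pck1, whose enzyme serves the making of glycerol backbones in fat, read 1.59 ± 0.06, Pdk4, the kinase that turns off pyruvate dehydrogenase, 1.34 ± 0.11, and Acot1, an acyl-CoA thioesterase, 1.21 ± 0.15. The median over the 24 was 0.10, 0.07 where DKO was in Cy5 and 0.25 where it was in Cy3. Of the 24, 12 were above zero on both arrays and 3 below. Of all measured genes, 0.0986% were called higher, 19.4% were above zero on both arrays and 17.7% below. These shares are over genes as named in the files, while the lists use current symbols. Targets of fat cell type such as Plin1 (the lipid droplet coat, 0.00 ± 0.23) and Adipoq (adiponectin, 0.07 ± 0.23), and fatty acid oxidation genes such as Ehhadh (0.96 ± 0.16), Acadm (0.46 ± 0.09) and Cpt1b (-0.05 ± 0.37), were chosen for mention after their values were seen. They show that members of the list differed widely, and Fabp4 was saturated.

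The CAR and PXR targets held the other 2 called genes. Of 17 listed, 13 were measured and 2 were higher in DKO: Cyp2b9 at 2.39 ± 0.09 and Cyp2b13 at 1.76 ± 0.40, cytochrome P450 genes of a family of near-identical copies whose probes may share signal. Their receptor gene Nr1i3 read -0.02 ± 0.08 with the probe tied to a clone and -0.12 ± 0.11 with the dimmer RefSeq probe, as given above. The median over the 13 was 0.05, with 7 above zero on both arrays and 2 below. The shares of all measured genes were 0.0986% called higher, 19.4% above zero on both arrays and 17.7% below. Cyp3a11, the classical PXR target, was chosen after its value was seen and read 0.02 ± 0.02. Cyp2b10, a further Cyp2b gene of the list and also named after its value was seen, read 0.81 ± 0.34 and was not called.

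In the other target lists no gene passed the 2-fold rule. The 5 measured of 8 retinoic acid receptor targets had a median of -0.18, with 4 below zero on both arrays and 0 above, and the brightest, the transglutaminase gene Tgm2, read -0.18 ± 0.04. Among all measured genes, 17.7% were below zero on both arrays and 19.4% above. The 5 measured of 8 estrogen and progesterone receptor targets had a median of -0.01, with Ihh at -0.02 ± 0.02. The lowest of them was Igf1 at -0.56 ± 0.07, an insulin-like growth factor gene with many other regulators, named after its value was seen.

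Medians of the remaining lists lay within 0.1 of zero. They were -0.01 for 8 of 13 liver X receptor targets (Apoe, the lipoprotein gene, 0.11 ± 0.20) and -0.01 for 4 of 5 bile acid receptor targets (the bile salt pump gene Abcb11, -0.07 ± 0.02). The vitamin D receptor list gave 0.03 for 3 of 6 (the calcium-binding protein gene Calb1, 0.08 ± 0.10), and the mineralocorticoid receptor list 0.06 for 3 of 6 (Tsc22d3, which glucocorticoids also induce, -0.08 ± 0.65). The HNF4 list gave 0.01 for 8 of 9 (the glucose-6-phosphatase gene G6pc, -0.01 ± 0.06) and the NR5A list -0.02 for 8 of 10 (Fdx1, which feeds electrons to steroid-making enzymes, -0.11 ± 0.01).

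**Figure D4:**
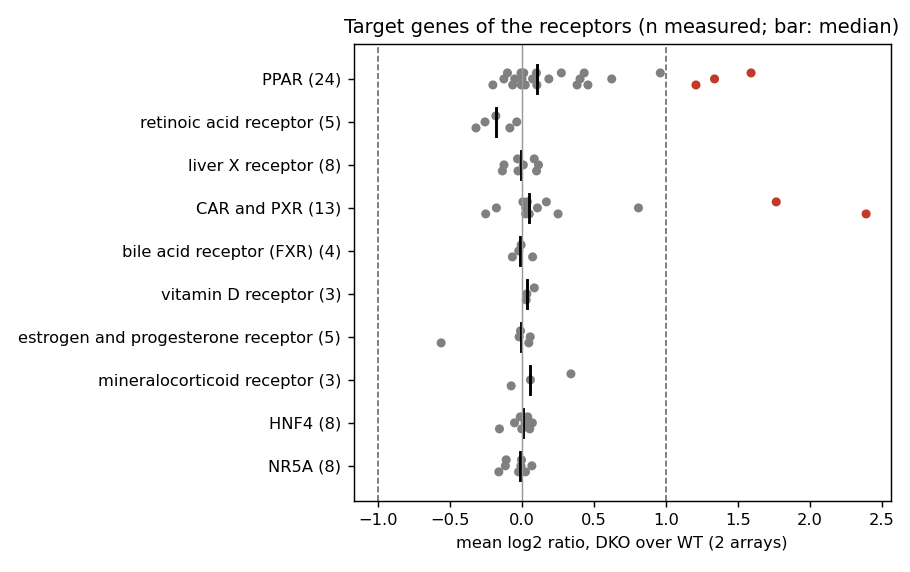
Mean log2 ratio of DKO over WT over both arrays (x axis) for the measured genes of 10 lists of receptor targets (y axis, with the number measured); each dot is a gene, the bar is the list's median, red dots passed the 2-fold rule and dashed lines mark 2-fold. The 5 red dots are Pck1, Pdk4 and Acot1 among PPAR targets and Cyp2b9 and Cyp2b13 among CAR and PXR targets, and the medians of the lists lie between -0.18 and 0.10.

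Markers of cell types moved beside these values. Skeletal muscle, which also uses Ppara and PPAR targets and lies next to interscapular fat, had 10 of 13 markers measured (the others were not analysed here), 8 above zero on both arrays and 0 below, with a median of 0.65 (0.44 and 0.87 with DKO in Cy5 and in Cy3) and the enolase gene Eno3 called higher at 1.21 ± 0.33. The summed linear level of its markers was 6990 and 6216 in WT and 9867 and 11774 in DKO. Brown adipocyte markers had a median of 0.28 over 10 measured of 11, with 7 above zero on both arrays and 1 below (Cidea, which was saturated). Dio2 (1.89 ± 0.32) and Elovl3 (1.02 ± 0.02) were called higher. For both lists, the shares of all measured genes were 0.0986% called higher, 19.4% above zero on both arrays and 17.7% below.

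Among white adipocyte markers 1 of 4 measured was called, Lep (leptin), lower at -1.08 ± 0.42, where 0.023% of all measured genes were called lower. The median of the 4 was 0.02, with 2 above zero on both arrays and 2 below. No marker of macrophages, endothelial cells, fibroblasts, lymphocytes, liver or epithelium was called, and the medians of these lists lay between -0.09 and 0.03. The part of these cell types in the Ppara and Esr1 values was not tested. In bulk tissue, a change in the number of cells that use a gene and a change in its RNA per cell cannot be told apart.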

How the data were processed

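Brown fat RNA of both genotypes was hybridised to 2 dye-swapped Agilent whole-genome arrays. Images were read by the authors in Agilent Feature Extraction 7.5 with its defaults, per the labels. The deposited spot files give each spot's signal and its local background as linear, unnormalised intensity, per the file headers. A log10 ratio (red over green) after the software's own background and dye correction stands beside them, with a p-value from its error model for one array, per the file headers. The authors' deposited value table is in log2, red over green. It equals the spot files' ratios to within 0.001 at 40962 of 41001 values on one array and 41101 of 41141 on the other, with medians of 0, and its later processing is not known here.

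Spot means were background-corrected by normexp (offset 50, median local background) and loess-normalised within each array in limma 3.58.1 under R 4.3.3, with control spots and outlier-flagged spots at weight 0. Outlier-flagged spots (171 and 29) were then left out, saturated spots (12 and 14) kept, replicate spots averaged, and the ratio's sign reversed where DKO was in Cy3. The offset shrinks ratios of dim probes. A gene stood for its measured probe of highest average intensity. The labels do not say if the mice were pooled or if the arrays share extracts, and they differ on the starting amount of total RNA. With 2 arrays, their number limits the precision.

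Named genes were every listed receptor with every probe, Rora, and in each list the called genes (up to 4) or else the brightest; others were named after their values were seen. The receptor genes and gene lists were chosen with earlier results of these data known. The level of another gene deleted in these mice is not reported here. A RefSeq table of GRCm38.p6 served for names and promoters. Alternatives are listed in the closing section. Tables and plots used pandas 2.3.3, numpy 2.4.6 and matplotlib 3.10.9 under Python 3.11.15.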

Additional observations from a re-analysis of the deposited data

How the results depend on the processing

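Across 18 alternatives (the software's ratios, an offset of 16, centring on the median without loess, spot medians, a loess on detected probes only, no, strict and negative-control filters for dim probes, averaged probes, sizes of 1.5-fold and 3-fold, the deposited value table, the error model, single arrays, RefSeq names and, added after seeing the data, outlier spots kept and Hnf4a and Nr2f2 included), the median of the measured receptor genes moved by more than the spread between arrays with median centring, to 0.0898. Receptor genes called higher went from 0 to 1 at 1.5-fold and to 1 with the error model (Ppara), and those called lower from 0 to 1 with the error model (Esr1). Ppara ranged from 0.58 to 0.73 over 15 alternatives, some of which leave its value as it was. Esr1 ranged from -0.62 to -0.03, the latter with probes named by RefSeq accession, which leaves out the probe tied to a clone, and the sign of the mean was kept in all 15. The probe annotated to RefSeq read -0.07 and 0.00 on the arrays, with opposite signs. The other Esr1 values came from the clone's probe, alone or averaged with the RefSeq one. In 253 values of the other 17 genes, 0 passed 2-fold and 0 passed 1.5-fold; they ran from -0.26 (Nr2f6) to 0.56 (Nr5a1), both from the DKO-in-Cy5 array by itself. With median centring the median of all genes was 0.04 and that of PPAR targets 0.24, with 16 above zero on both arrays and 0 below. The median of the retinoic acid receptor targets was -0.08 in that setting, with 0 above zero on both arrays and 2 below. No paired analysis was possible because each genotype had 1 preparation, present on both arrays. Dim spots limit the ratios of Rarb, Nr2c1, Nr5a2 and Esr2.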
